A study of Homo sapiens with 4 samples.

Results

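The genes described here are 52 genes that act in the G2 phase of the cell cycle and in mitosis. They were taken from a fixed list of symbols, and each was read from the brightest probe set that carries its symbol. All 52 had a probe set, each had only 1, and they stand among 15870 named genes and 18603 probe sets in all. Total RNA was measured on 4 Affymetrix arrays of MDA-MB-231 cells, an established human breast carcinoma line of mesenchymal-like character. On 2 arrays the cells were labelled shDROSHA, a short hairpin RNA against DROSHA, and on 2 they were the control, labelled shNC, which the design text instead calls mock-transfected. DROSHA releases microRNA precursors from their primary transcripts in the nucleus, and the arrays were set up to compare mRNA levels between cells with and without its knockdown. The titles call the replicates biological, but no source used here says whether each came from a separate transfection, so the p-values rest on the spread between these arrays. In the main fit most of the spread used for a gene was estimated from probe sets of like signal, as given under processing. The hairpin's sequence, the number of hairpins used and the time after transfection are likewise not stated.

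Cells enter mitosis when the kinase CDK1, bound to cyclin B, becomes active. Chromosomes are then condensed, attached to the spindle through kinetochores, held back by the spindle checkpoint until all are attached, and separated once the anaphase-promoting complex (APC/C) marks cyclin B and securin for destruction. The mRNAs of these proteins are made mainly in G2 and M. In resting and early G1 cells the DREAM complex represses their promoters at a short element called the cell cycle genes homology region (CHR). Later in the cycle the MuvB core of DREAM joins B-MYB (the product of MYBL2) and then FOXM1, and the factor NF-Y binds CCAAT boxes nearby. In array data from a whole culture, a larger share of cells in G2 and M and more mRNA per such cell cannot be told apart.

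The promoters of 8 members show what these elements look like in genes whose levels moved differently, as given below. Each line holds the 150 bases before a RefSeq start on GRCh38.p14, 5′ to 3′ on the gene's strand. The words CCAAT and TTTGAA or TTCGAA (spellings of the CHR) are in capitals on either strand. Thus ATTGG is a CCAAT box on the other strand. Other spellings of the CHR were not searched for. The first 3 are the mitotic cyclins, the next 3 an APC/C activator and a pair of cytokinesis genes, and the last 2 a transcription factor with neither word and a gene that was lower.
CCNA2, chr4:121823884-121824033, minus strand: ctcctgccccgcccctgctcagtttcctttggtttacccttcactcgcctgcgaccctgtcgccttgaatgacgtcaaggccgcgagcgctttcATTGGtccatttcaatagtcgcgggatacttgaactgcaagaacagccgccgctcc
CCNB1, chr5:69167000-69167149, plus strand: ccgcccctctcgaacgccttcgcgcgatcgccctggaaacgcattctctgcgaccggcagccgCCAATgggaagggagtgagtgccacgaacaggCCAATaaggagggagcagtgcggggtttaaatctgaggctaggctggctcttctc
CCNB2, chr15:59104996-59105145, plus strand: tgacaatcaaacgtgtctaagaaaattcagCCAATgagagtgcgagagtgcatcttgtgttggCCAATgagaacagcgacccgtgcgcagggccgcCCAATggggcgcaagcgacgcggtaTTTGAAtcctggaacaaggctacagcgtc
CDC20, chr1:43358831-43358980, plus strand: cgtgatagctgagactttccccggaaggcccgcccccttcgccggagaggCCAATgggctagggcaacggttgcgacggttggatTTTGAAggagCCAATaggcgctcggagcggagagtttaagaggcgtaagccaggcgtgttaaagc
KIF20A, chr5:138178962-138179111, plus strand: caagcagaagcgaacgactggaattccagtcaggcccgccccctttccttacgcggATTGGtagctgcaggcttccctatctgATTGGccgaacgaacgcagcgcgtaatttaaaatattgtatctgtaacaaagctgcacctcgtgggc
ECT2, chr3:172750576-172750725, plus strand: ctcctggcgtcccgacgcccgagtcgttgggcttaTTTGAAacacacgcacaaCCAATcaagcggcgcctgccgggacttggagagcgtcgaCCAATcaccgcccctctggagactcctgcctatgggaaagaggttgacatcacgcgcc
MYBL2, chr20:43666964-43667113, plus strand: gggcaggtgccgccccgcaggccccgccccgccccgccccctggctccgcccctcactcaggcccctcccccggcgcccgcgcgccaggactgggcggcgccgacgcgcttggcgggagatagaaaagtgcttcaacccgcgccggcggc
ESPL1, chr12:53268149-53268298, plus strand: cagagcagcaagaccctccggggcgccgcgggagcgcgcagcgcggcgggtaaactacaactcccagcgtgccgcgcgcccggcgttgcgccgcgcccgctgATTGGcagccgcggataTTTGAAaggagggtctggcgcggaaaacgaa

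DROSHA itself had log2 signals of 8.71 and 8.74 in the shDROSHA arrays, against 9.66 and 9.76 in the shNC arrays, and fell by 0.99 on the log2 scale (SE 0.073, limma adjusted p = 3.89e-06). Of 4 measured markers of the line, VIM and CAV1 read between 11.82 and 12.09, AXL between 10.67 and 11.09 and CD44 between 9.45 and 9.66. CAV1 fell by 0.23 (limma adjusted p = 0.0031), AXL rose by 0.33 (adjusted p = 0.00442), and VIM (-0.03) and CD44 (0.12) did not pass. In contrast ESR1, which defines luminal breast cells, read 6.39 and 6.02 with shDROSHA and 6.11 and 6.06 with shNC, below the array medians of 7.21 to 7.25. KRT8 and KRT18, listed here as luminal markers, were bright and read 11.40 to 11.61 and 10.90 to 11.13. Of 6 luminal markers measured 0 passed the test (2 higher and 0 lower at an unadjusted p under 0.05 in limma). Of 5 leukocyte and endothelial markers 0 passed (1 higher and 0 lower at an unadjusted p under 0.05): PTPRC, CD3E, PECAM1 and CDH5 read 4.21 to 6.43, whereas CD68 read 9.50 and 9.55 with shDROSHA, against 9.31 and 9.35 with shNC, a difference of 0.20. What part these marker differences have in the results below was not tested.

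Most of the 52 mitotic genes were somewhat higher in the shDROSHA cells. In limma with a prior variance that follows the signal level, called the trended fit here, 18 rose at adjusted p 0.05, 0 fell and 34 did not pass. Those that rose did so by 1.12-fold to 1.43-fold, and ECT2, CCNA2 and NUF2 differed most. At an unadjusted p under 0.05 the same fit had 32 members higher and 0 lower, against 9.24% and 10.1% of all probe sets. The median log2 difference of the 52 was 0.17, a 1.12-fold difference, with quartiles of 0.11 and 0.24, against a median of 0.001 over all probe sets. In all, 44 members were higher and 8 lower, which is 84.6% higher against 50.2% of all probe sets. Both shDROSHA arrays lay above both shNC arrays at 39 members and below both at 3, against 23.4% and 24.4% of all probe sets.

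These counts have to be read against the array as a whole. Over all probe sets the trended fit called 3.12% as higher and 3.28% as lower, against 34.6% of the members as higher. Members are bright, and bright probe sets are called more often. Of the 52, 43 lay in the brightest of 5 equal bins of signal, where 9.67% of all probe sets rose and 5.97% fell and where 17 of the 43 members, or 39.5%, rose. The other 9 lay in the next bin, where 3.66% of all probe sets rose, 5.27% fell and 46.3% were higher, and where 1 of the 9 members rose and 6 were higher. In the brightest bin 38 of the 43 members were higher, with a median of 0.17, against 55.7% of all its probe sets, with a median of 0.02. With each array centred on its median, 22 members rose and 0 fell, and 62.5% of all calls were higher, against 48.7% of them as deposited.

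**Figure D1:**
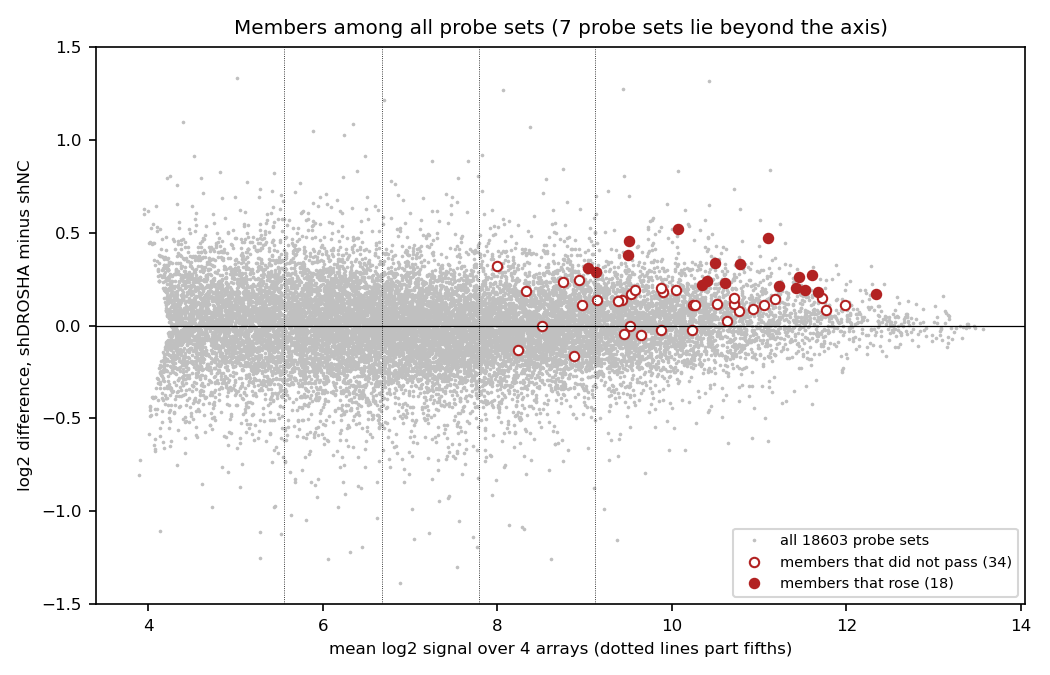
Log2 difference between shDROSHA and shNC (vertical axis) against the mean log2 signal over the 4 arrays (horizontal axis) for all 18603 probe sets in grey and the 52 members in red. Filled circles are the 18 members that rose and open circles the 34 that did not pass, dotted lines part 5 equal bins of signal, and 7 probe sets lie beyond the vertical axis. The members sit at the bright end and mostly above 0.

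The calls depend on how the spread is modelled and on 1 control array. With 1 constant prior variance for all probe sets, 0 of the 52 passed in limma, the lowest adjusted p being 0.173, while 15 were higher and 0 lower at an unadjusted p under 0.05, against 6.80% and 8.11% of all probe sets. That fit called 1 probe set, or 0.00538%, on the whole array. In the trended fit, 5 members rose without shNC replicate 1 and 13 without shNC replicate 2, against 16 without shDROSHA replicate 2 and 21 without shDROSHA replicate 1. CCNA2, CCNB1, MYBL2, NUF2 and ECT2 were called whichever array was left out, and the other 13 calls were lost without shNC replicate 1. Over the whole array too, fewer probe sets rose without either shNC array than in the full fit, and fewest without shNC replicate 1. The direction of the members was steadier than their calls: 42 of the 52 were higher whichever array was left out, and the median was 0.13 to 0.20.

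On each array most members lay on one side of their own mean. Measured from each gene's own mean over the 4 arrays, the median deviation of the 52 was 0.09 and 0.08 with shDROSHA and -0.11 and -0.05 with shNC, and 47 and 41 members lay above their own mean with shDROSHA, against 6 and 12 with shNC. Over all probe sets these medians were between -0.01 and 0.01. The control arrays were not alike: 44 of the 52 members read higher in shNC replicate 2 than in shNC replicate 1, whereas the shDROSHA arrays had 28 higher in replicate 2. The typical gap between the arrays of a group was 0.08 for shDROSHA and 0.06 for shNC, against a typical difference between the groups of 0.17 (medians of absolute values over the members).

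**Figure D2:**
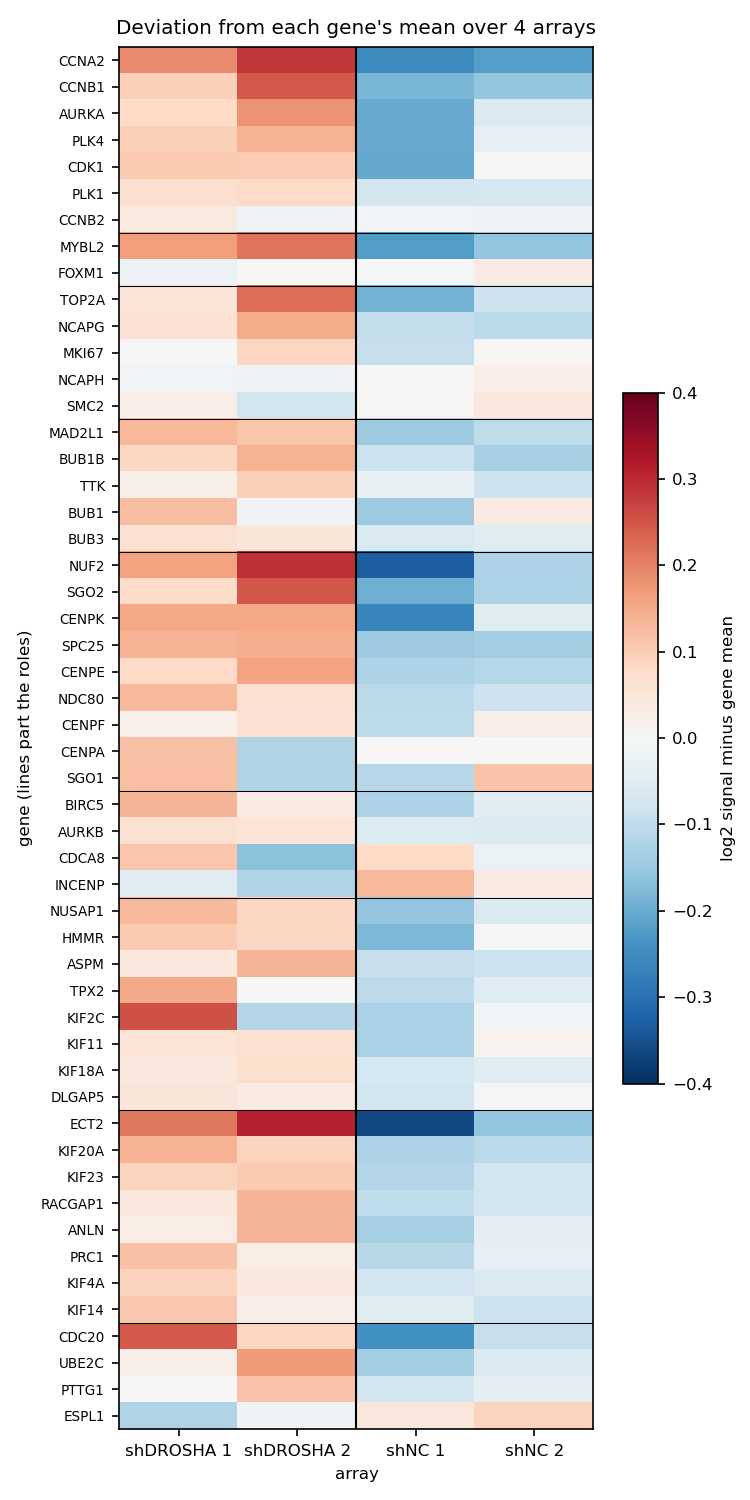
Deviation of the log2 signal of each of the 52 members (rows, parted by lines into 9 roles) from its own mean over the 4 arrays (columns, shDROSHA left of shNC), in red where higher and blue where lower. The shDROSHA columns are mostly red and the shNC columns mostly blue, with the deepest blue in shNC replicate 1 at ECT2 and NUF2, and CDCA8, CENPA and SGO1 differ within groups as much as between them.

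Among the genes that start mitosis, the cyclins A2 and B1 and the kinase Aurora A rose, while cyclin B2 differed by only 0.02. CCNA2, the cyclin of S phase and early mitosis, read 11.30 and 11.39 in the shDROSHA arrays, against 10.85 and 10.89 in the shNC arrays. It rose by 0.47 (SE 0.049, adjusted p = 7.73e-05), 1.39-fold, with both knockdown arrays well above both controls. CCNB1, the main activator of CDK1 at mitotic entry, read 10.59 and 10.74 in shDROSHA, against 10.31 and 10.34 in shNC. It rose by 0.34 (SE 0.06, adjusted p = 0.00365), 1.26-fold. CCNB2, the Golgi-associated B cyclin, read 10.67 and 10.62 in shDROSHA and 10.62 and 10.62 in shNC. Its difference was 0.02 with a 95% interval of -0.09 to 0.13 in the trended fit, where that of CCNB1 was 0.21 to 0.47. The difference between these cyclins was not tested. The stretch of CCNB2 printed above holds 3 CCAAT words and 1 TTTGAA. The stretches of CCNA2 and CCNB1 hold fewer CCAAT words and neither CHR spelling searched for. They may hold another spelling, so this search cannot show whether these cyclin genes differ in the CHR.

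AURKA, which matures centrosomes and builds the spindle poles, read 11.54 and 11.64 in shDROSHA, against 11.25 and 11.40 in shNC. It rose by 0.26 (adjusted p = 0.0102), and by 0.19 without shNC replicate 1 (adjusted p = 0.121). CDK1, the catalytic partner of the mitotic cyclins, read 9.98 and 9.98 in shDROSHA and 9.68 and 9.88 in shNC. Its arrays did not overlap between groups, but the difference of 0.20 did not pass (adjusted p = 0.119), and it passed only without shNC replicate 2 (0.31, adjusted p = 0.0388). The other kinases of this role were higher without passing, PLK1, which acts at centrosomes, kinetochores and in cytokinesis, by 0.14, and PLK4, which starts centriole duplication, by 0.23.

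Of the pair of transcription factors that drive this programme, MYBL2 rose and FOXM1 did not pass. MYBL2, which encodes B-MYB, read 9.66 and 9.71 in shDROSHA, against 9.27 and 9.33 in shNC, and rose by 0.38 (SE 0.068, adjusted p = 0.00374), 1.30-fold. FOXM1 read 9.86 and 9.88 in shDROSHA and 9.87 and 9.91 in shNC, so the groups overlapped. Its difference was -0.02 with an interval of -0.16 to 0.11 in the trended fit, where that of MYBL2 was 0.24 to 0.53. The difference between these factors was not tested. The MYBL2 stretch printed above holds neither word, and FOXM1 had no matched promoter window to set beside it. B-MYB is known as a gene of the earlier, E2F-driven wave at the start of S phase. What part this has in the values of these factors was not tested.

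**Figure D3:**
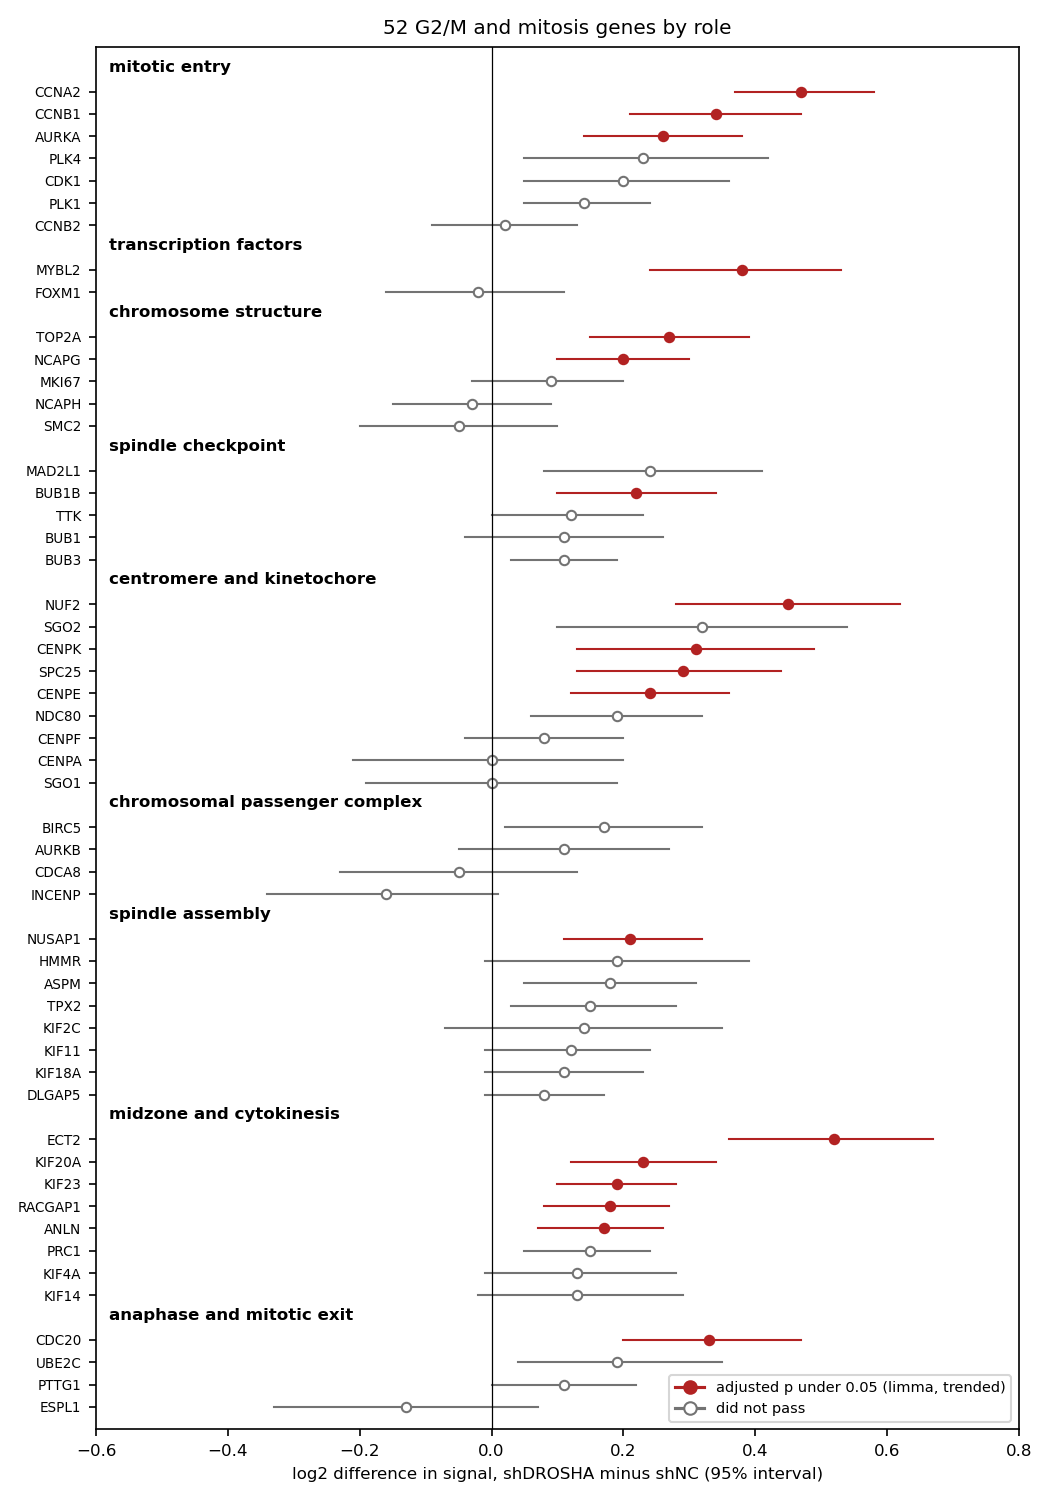
Log2 difference between shDROSHA and shNC for each of the 52 members, grouped by role, with 95% intervals from the trended limma fit. Filled red points are the 18 that rose and open grey points the 34 that did not pass, and the 8 members on the lower side of 0 include INCENP (-0.16) and ESPL1 (-0.13), with no interval entirely below 0.

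Of 5 genes of chromosome structure, 2 rose. TOP2A, the topoisomerase that untangles sister DNA, read 11.66 and 11.83 in shDROSHA, against 11.42 and 11.53 in shNC, and rose by 0.27 (adjusted p = 0.00961). NCAPG, a subunit of condensin I, read 11.48 and 11.57 in shDROSHA, against 11.32 and 11.31 in shNC, and rose by 0.20 (adjusted p = 0.017). The TOP2A call was lost without shNC replicate 1, and that of NCAPG without either shNC array or shDROSHA replicate 2. The partners of NCAPG did not follow it. NCAPH, the kleisin of the same complex, read 10.22 and 10.22 in shDROSHA and 10.24 and 10.26 in shNC, a difference of -0.03, and SMC2, the ATPase shared by both condensins, differed by -0.05. MKI67, the proliferation antigen Ki-67 that coats mitotic chromosomes, read 10.94 and 11.02 in shDROSHA and 10.84 and 10.94 in shNC. Its difference of 0.09 (interval -0.03 to 0.20) did not pass.

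The 5 spindle checkpoint genes, which hold anaphase back until all kinetochores are attached, were all higher, and 1 rose. BUB1B, which encodes BUBR1 of the mitotic checkpoint complex, read 10.43 and 10.48 in shDROSHA, against 10.26 and 10.21 in shNC. It rose by 0.22 (adjusted p = 0.03), a call lost without either shNC array or shDROSHA replicate 2. MAD2L1, the checkpoint protein MAD2, read 9.07 and 9.05 in shDROSHA and 8.79 and 8.84 in shNC. Its difference of 0.24 did not pass (adjusted p = 0.077), though it did with each array centred on its median (adjusted p = 0.0476). BUB1, a kinetochore kinase, read 10.37 and 10.23 in shDROSHA and 10.10 and 10.28 in shNC, so its groups overlapped. BUB3, the WD-repeat partner of BUB1 and BUBR1, and TTK, the kinase MPS1 at the top of the pathway, were higher by 0.11 and 0.12 without passing.

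Centromere and kinetochore genes held 4 that rose of 9. NUF2 and SPC25 belong to the NDC80 complex, which grips microtubules. NUF2 read 9.67 and 9.80 in shDROSHA, against 9.18 and 9.39 in shNC, and rose by 0.45 (SE 0.08, adjusted p = 0.0037), 1.37-fold. SPC25 read 9.27 and 9.28 in shDROSHA, against 8.99 and 8.99 in shNC, and rose by 0.29 (adjusted p = 0.0288). NDC80, the subunit that names the complex, was higher by 0.19 without passing (adjusted p = 0.0776), with arrays that did not overlap between groups. SPC24, the direct partner of SPC25 and measured in another list, read 9.09 and 8.96 in shDROSHA and 9.03 and 9.04 in shNC, a difference of -0.01 (interval -0.17 to 0.16). The subunits of the complex thus did not all differ alike, and SPC24 was named after its values were seen.

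CENPE, a kinesin that carries chromosomes to the metaphase plate, read 10.49 and 10.57 in shDROSHA, against 10.28 and 10.30 in shNC, and rose by 0.24 (adjusted p = 0.0195). CENPK, of the constitutive centromere network, read 9.20 and 9.20 in shDROSHA, against 8.78 and 9.00 in shNC, and rose by 0.31 (adjusted p = 0.0427). Without shNC replicate 1 the CENPK difference was 0.20 and did not pass (adjusted p = 0.385), and the calls of CENPE and SPC25 were lost without either shNC array. That of CENPE was lost without shDROSHA replicate 2 as well. SGO1, a protector of centromeric cohesion, read 9.64 and 9.40 in shDROSHA and 9.40 and 9.63 in shNC. Its difference was 0.00, with an interval of -0.19 to 0.19, since the arrays of each group differed by more than the groups. Its relative SGO2 was higher by 0.32 without passing (adjusted p = 0.0834). CENPA, the histone variant that marks centromeres, and CENPF, a large kinetochore protein, differed by 0.00 and 0.08.

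The chromosomal passenger complex, which corrects attachments and then guides cytokinesis, was the role with 0 of 4 members passing (1 higher and 0 lower at an unadjusted p under 0.05 in limma). BIRC5, survivin, read 9.67 and 9.57 in shDROSHA and 9.41 and 9.49 in shNC, a difference of 0.17 (adjusted p = 0.193). INCENP, the scaffold, read 8.84 and 8.76 in shDROSHA and 9.01 and 8.91 in shNC. At -0.16 (interval -0.34 to 0.01) it had the lowest difference of the 52, and both knockdown arrays lay below both controls. CDCA8, borealin, read 9.75 and 9.48 in shDROSHA and 9.72 and 9.62 in shNC and overlapped throughout. AURKB, the kinase of the complex, differed by 0.11 without passing.

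All 8 spindle assembly genes were higher, and 1 rose. NUSAP1, which bundles spindle microtubules near chromosomes, read 11.36 and 11.32 in shDROSHA, against 11.08 and 11.18 in shNC, and rose by 0.21 (adjusted p = 0.0182), a call lost without shNC replicate 1. ASPM, which focuses spindle poles, read 9.94 and 10.03 in shDROSHA and 9.80 and 9.81 in shNC, a difference of 0.18 that did not pass (adjusted p = 0.113). KIF2C, the microtubule-depolymerising kinesin MCAK, read 9.68 and 9.31 in shDROSHA and 9.30 and 9.42 in shNC. Its value rests on 1 array: it was 0.33 without shDROSHA replicate 2 and -0.05 without shDROSHA replicate 1. The motors KIF11 and KIF18A, the Aurora A activator TPX2 and the spindle proteins HMMR and DLGAP5 differed by 0.08 to 0.19, with arrays that did not overlap between groups.

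The genes of the central spindle and of cytokinesis held the most calls, 5 of 8, against 9.67% of all probe sets in the brightest bin, where all 8 lie. At all 8 both shDROSHA arrays lay above both shNC arrays, against 23.4% of all probe sets. ECT2, the exchange factor that activates RHOA at the cleavage furrow, read 10.28 and 10.38 in shDROSHA, against 9.71 and 9.92 in shNC. It rose by 0.52 (SE 0.072, adjusted p = 0.000668), 1.43-fold, the largest difference of the 52. RACGAP1 and KIF23 form centralspindlin, which recruits ECT2 to the midzone. KIF23 read 11.62 and 11.63 in shDROSHA, against 11.41 and 11.45 in shNC, and rose by 0.19 (adjusted p = 0.0145). RACGAP1 read 11.72 and 11.82 in shDROSHA, against 11.58 and 11.60 in shNC, and rose by 0.18 (adjusted p = 0.0279). All 3 genes of this recruitment step therefore rose in the trended fit. In that fit the intervals of KIF23 and RACGAP1 end at 0.28 and 0.27, where that of ECT2 starts at 0.36. The difference between these genes was not tested, and with the constant prior variance none of them passed.

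KIF20A, a midzone kinesin that relocates the passenger complex, read 10.75 and 10.70 in shDROSHA, against 10.48 and 10.50 in shNC, and rose by 0.23 (adjusted p = 0.0166). ANLN, anillin of the contractile ring, read 12.37 and 12.48 in shDROSHA, against 12.21 and 12.31 in shNC, and rose by 0.17 (adjusted p = 0.0389). KIF14, a kinesin that brings citron kinase to the midzone, read 9.25 and 9.17 in shDROSHA and 9.09 and 9.06 in shNC, a difference of 0.13 (interval -0.02 to 0.29) that did not pass (adjusted p = 0.35). PRC1, which crosslinks midzone microtubules, and the kinesin KIF4A were higher by 0.15 and 0.13 without passing. Of the 5 calls only that of ECT2 held without shNC replicate 1. Those of KIF20A and RACGAP1 were lost without shNC replicate 2, and those of ANLN and RACGAP1 without shDROSHA replicate 2.

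Among genes of anaphase and mitotic exit, the APC/C activator rose and the protease did not. CDC20, which activates the APC/C at the metaphase to anaphase step, read 11.03 and 10.87 in shDROSHA, against 10.54 and 10.69 in shNC. It rose by 0.33 (SE 0.064, adjusted p = 0.00627), 1.26-fold, and by 0.26 without shNC replicate 1 (adjusted p = 0.0601). UBE2C, the ubiquitin-conjugating enzyme of the APC/C, read 9.60 and 9.74 in shDROSHA and 9.44 and 9.52 in shNC. Its difference of 0.19 did not pass (adjusted p = 0.145), and it was 0.26 without shDROSHA replicate 1. ESPL1, separase, the protease that cuts cohesin, read 8.12 and 8.23 in shDROSHA and 8.29 and 8.33 in shNC. Its difference was -0.13 (interval -0.33 to 0.07), and PTTG1, securin, its inhibitor, differed by 0.11 without passing.

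Promoter windows of RefSeq (GRCh38.p14, 250 bases before to 50 after a start) were matched for 44 of the 52, leaving AURKA, FOXM1, BUB3, TTK, BIRC5, TPX2, RACGAP1 and UBE2C unmatched. Of the 44, 35 held CCAAT on either strand in at least 1 window, or 79.5%, against 42.2% of the 12805 array genes with a window. TTTGAA or TTCGAA stood in 33, or 75.0%, against 16.3% of those genes. Both words stood in 1 window for 26 members, or 59.1%, against 6.78% of the array genes. Of 31 G1/S and replication genes with a window, 64.5% held CCAAT and 9.68% the CHR words. CCAAT matches of the members had a median position of -69 bases from the start, and CHR matches one of -23. Matches were counted whether or not they shared bases with the other word, and TTCGAA reads the same on both strands. A match is a run of letters, not a shown binding site. Other spellings of the CHR were not counted, so a gene without these words may still hold the element.

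Carrying these exact words did not go with a larger difference among the members. The 26 members with both had a median log2 difference of 0.13 and a range of -0.16 to 0.52, and 6 of them rose. The 9 without CCAAT had a median of 0.20 and the 11 without TTTGAA or TTCGAA one of 0.24, and 6 rose in each. The 11 may include members with the CHR in a spelling not searched for. This split therefore cannot show whether the element went with the difference. Only 3 members held neither word, MYBL2, CENPE and KIF2C, of which MYBL2 and CENPE rose. The members lower than 0 included INCENP, ESPL1 and CDCA8, each with both words.

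**Figure D4:**
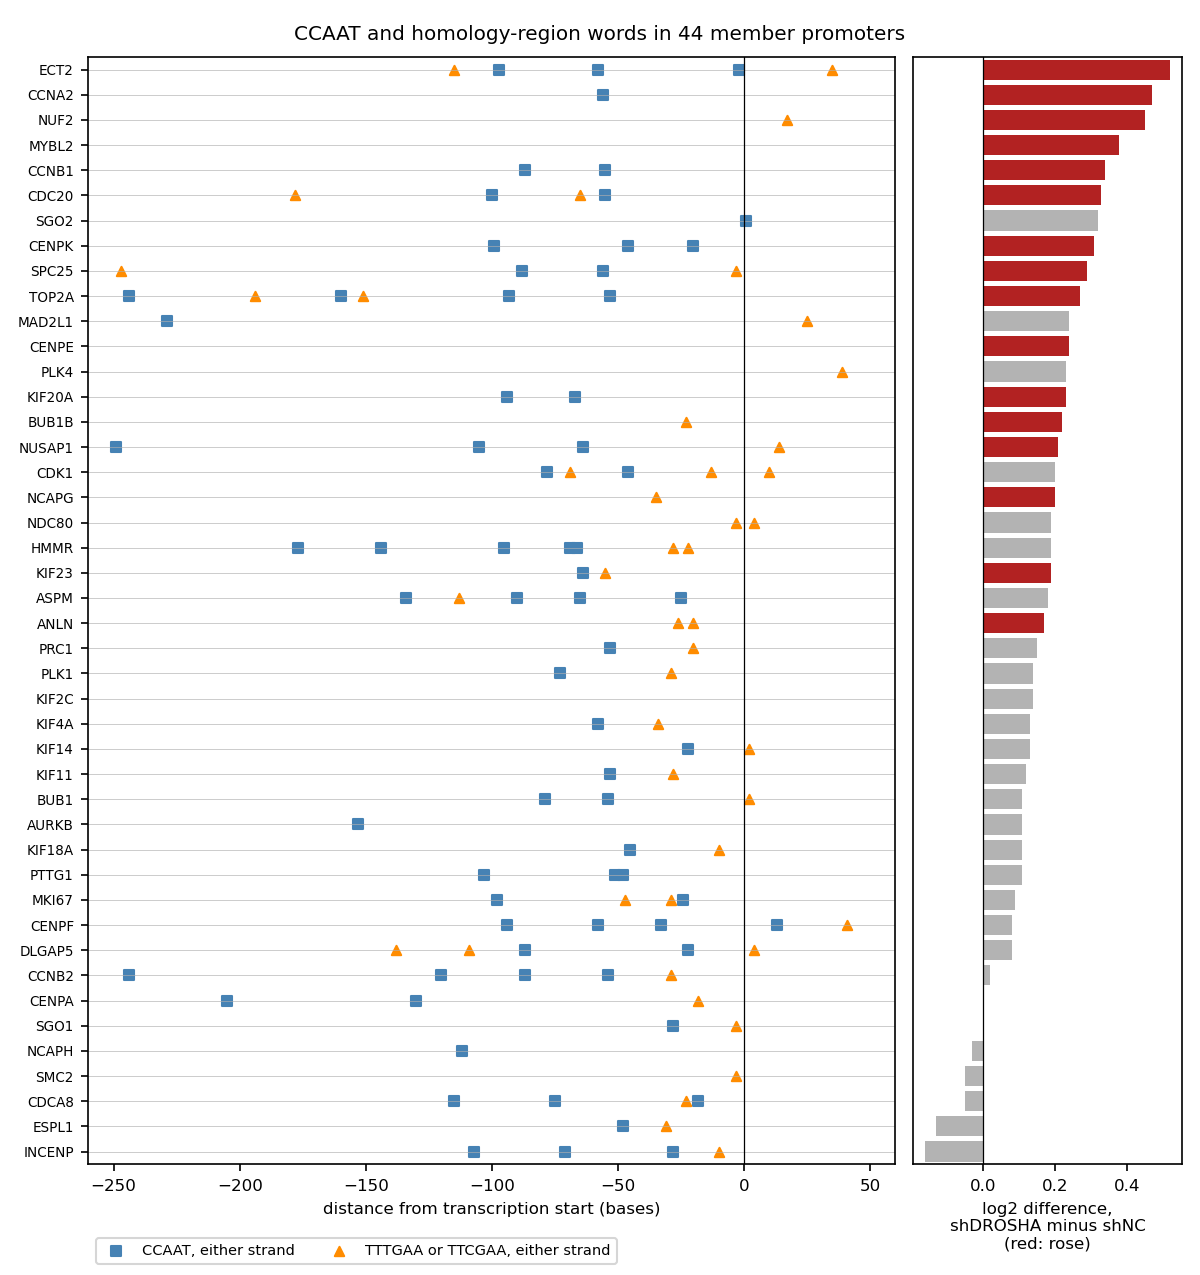
Positions of CCAAT (squares) and of TTTGAA or TTCGAA (triangles) on either strand in the promoter windows of 44 members, as distance in bases from the RefSeq start, beside each member's log2 difference between shDROSHA and shNC, in red where it rose. For a gene with several windows the one with most matches is drawn. Rows run from ECT2 at 0.52 to INCENP at -0.16, and squares and triangles stand in rows at both ends.

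Of all probe sets 3.12% rose, 3.28% fell and 50.2% were higher. In the brightest bin 9.67% rose and 5.97% fell, and in the next bin 3.66% and 5.27%. Of 106 other measured genes of mitosis, from 6 lists, 13 rose and 2 fell, 85 were higher and 21 lower, and the median was 0.12. The difference of these 106 genes from the 52 was not tested. Of these, 3 rose without shNC replicate 1 and 5 without shNC replicate 2. Of 20 other spindle and cytokinesis genes, all 20 were higher and 4 rose (median 0.17), led by KNSTRN, a kinetochore adaptor, by 0.25, PBK, a mitotic kinase, by 0.33 and CDCA3, a cell cycle regulator, by 0.42. Of 27 other kinetochore and centromere genes 5 rose and 0 fell (median 0.12), among them CENPN, a reader of centromeric chromatin, by 0.41, CENPL, its partner, by 0.39 and ZWILCH, of the checkpoint complex RZZ, by 0.31. Of 14 other condensin and cohesin genes 0 passed, with 11 higher and 3 lower (4 higher and 0 lower at an unadjusted p under 0.05 in limma). SMC3, STAG1 and PDS5A, all of cohesin, differed by 0.12 to 0.22. Of 17 APC/C subunits and regulators 1 rose, CDC23 (0.26), while the subunits ANAPC11 (-0.22) and ANAPC16 (-0.21) did not pass.

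Control of mitotic entry and of the programme itself held the largest single changes of these lists. WEE1, the kinase that holds CDK1 inactive, read 8.70 and 8.73 in shDROSHA, against 7.98 and 8.28 in shNC, and rose by 0.59 (adjusted p = 0.00344), 1.51-fold. CKS1B, a small CDK-binding protein, rose by 0.20 (adjusted p = 0.0176), and BORA, an activator of Aurora A, was higher by 0.32 without passing. These were 2 calls of 12 measured genes. Of 16 factors of DREAM, MuvB and NF-Y, 2 fell and 1 rose, against 3.28% and 3.12% of all probe sets.

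E2F5, a repressive E2F found in DREAM, read 7.11 and 6.85 in shDROSHA, against 7.87 and 7.94 in shNC, and fell by 0.92 (SE 0.123, adjusted p = 0.000528). RBL2, the pocket protein p130 of the same complex, read 7.37 and 7.18 in shDROSHA, against 7.85 and 7.76 in shNC, and fell by 0.53 (SE 0.115, adjusted p = 0.0133). LIN52, a subunit of the MuvB core, rose by 0.33 (adjusted p = 0.0277). The RBL2 call was lost without shNC replicate 1 (adjusted p = 0.12) at a difference of -0.49, and that of LIN52 when either shNC array or shDROSHA replicate 1 was left out. Other members of the repressor form were higher without passing, with arrays that did not overlap: RBL1, the pocket protein p107, by 0.18 (adjusted p = 0.122) and E2F4, its main E2F, by 0.15 (adjusted p = 0.271). Both were named after their values were seen. Of all 16 measured factors of DREAM, MuvB and NF-Y, 11 were higher and 5 lower, so the list held both directions.

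G1/S and replication genes, the nearest neighbours in the cycle, were split. Of 35 measured, 7 rose and 0 fell, against 3.12% and 3.28% of all probe sets and 9.67% and 5.97% of the brightest bin. Of the 35, 20 were higher and 15 lower, and the median was 0.04, against 0.17 and 44 of 52 for the mitotic genes. The difference between these lists was not tested. CCNE2, the cyclin of S phase entry, rose by 0.50 (adjusted p = 0.00179), MCM6, of the replicative helicase, by 0.47 (adjusted p = 0.00319) and SLBP, which binds histone mRNA, by 0.46 (adjusted p = 0.0102). Both shDROSHA arrays lay above both shNC arrays at 14 of the 35, against 39 of the 52 mitotic genes and 23.4% of all probe sets, and below them at 11, against 3 of the 52 and 24.4%. In the G1/S list, 2 rose without shNC replicate 1, and 3 fell without shDROSHA replicate 1.

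**Figure D5:**
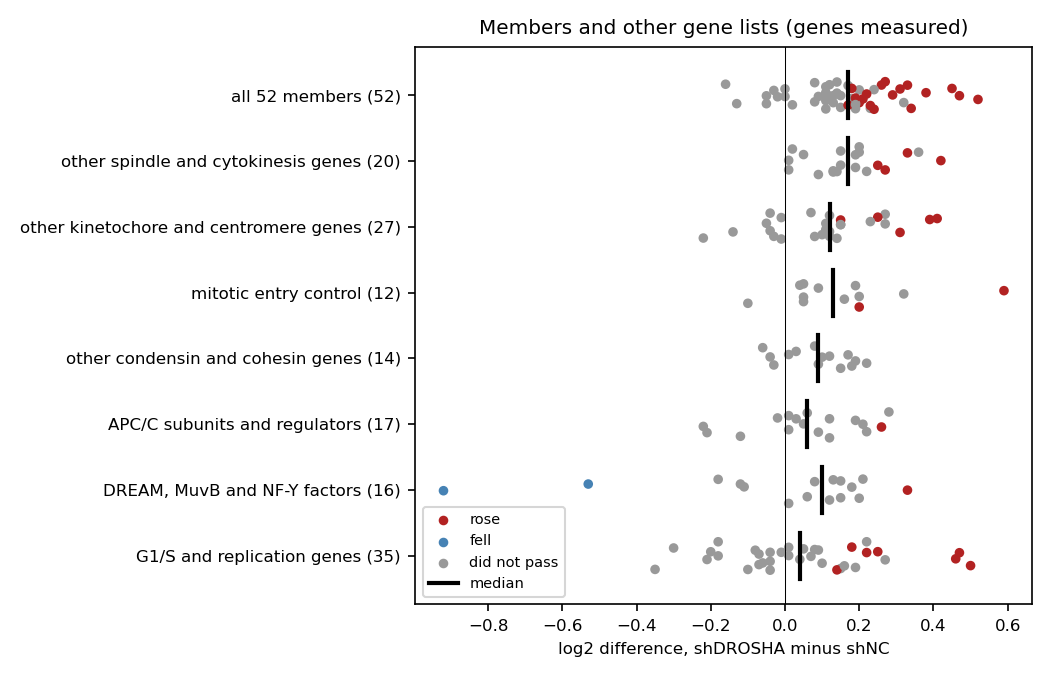
Log2 difference between shDROSHA and shNC for each measured gene of the 52 members and of 7 other lists (number measured in brackets), with the list's median as a black bar. Genes that rose are red, those that fell blue and those that did not pass grey. The medians run from 0.17 for the members and the other spindle genes to 0.04 for the G1/S list, and the blue points are E2F5 and RBL2.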

How the data were processed

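The data are 4 arrays of total RNA, 2 of shDROSHA and 2 of shNC cells, grouped by their titles. Each probe set has 1 deposited log2 value per array. RMA (background correction, quantile normalization and probe summary) was applied by the authors, per the submitters' processing notes, and its version, genome build and filters are not stated in any source used here. Such normalization hides a change shared by most transcripts, and dim probe sets have compressed differences.

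Probe sets were named through the platform annotation and RefSeq GRCh38.p14 (15886 of 18603 by Entrez identifier, 2717 unnamed). limma 3.58.1 in R 4.3.3 was fitted to all probe sets with a trended prior variance (11.9 prior and 2 residual degrees of freedom), Benjamini-Hochberg adjustment over all of them and a threshold of 0.05. A gene's p comes from this fit unless another setting is named beside it: a left-out array, centred arrays or a constant prior. Each of these was fitted anew with its own prior degrees of freedom. Without either shDROSHA array the prior degrees of freedom were infinite, so a gene's own spread did not enter its p. Calls of those fits are therefore not on the same footing as calls without a shNC array. An exact permutation test of 2 against 2 arrays cannot give a two-sided p below 0.333. The number of arrays limits the precision.

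The members, the lists, the trended fit as the main one and the alternatives were chosen with earlier results of these data known. Named in full are members that passed, the 2 with the smallest and the 1 with the largest p in each role, CCNB1, CDK1, MKI67, TOP2A, FOXM1 and MYBL2, DROSHA, and the 3 genes with the smallest p in each other list; all other members are given by value. Not measured in the lists were 8 genes.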

Additional observations from a re-analysis of the deposited data

How the results depend on the processing

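With a constant prior variance the counts were 0 members that rose, 1 probe set that rose and 0 that fell over the whole array, 0 and 0 in the other mitotic lists and 0 that rose in the G1/S list (2774 probe sets at an unadjusted p under 0.05 in limma). At adjusted p 0.10, 878 probe sets rose and 946 fell. A minimum of 1.2-fold left 9 members and 3 G1/S genes that rose, by construction. Quantile normalization again gave 4 G1/S genes that rose, 1 that fell and 5 members with both shDROSHA arrays below both shNC arrays. In the other mitotic lists 4 fell at adjusted p 0.10 and also once probe sets dimmer than the median were dropped, and 1 G1/S gene fell in each. Leaving out 1 array gave 5 to 21 members that rose, 249 to 885 probe sets that rose and 286 to 1064 that fell, 3 to 14 and 1 to 3 in the other mitotic lists, 2 to 6 and 0 to 3 in the G1/S list, a member median of 0.13 to 0.20, 42 to 48 members higher, and 39 to 45 above and 3 to 8 below in every array comparison. Where a group then had 1 array, the residual spread came from the other group. Without a shDROSHA array the test used only the trended prior.

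Small differences turned sign. Centred arrays gave 0.01 for FOXM1 and NCAPH and 0.03 for SGO1, and quantile normalization again gave -0.02 for CCNB2. Leaving out 1 array gave -0.01 for CCNB2 and -0.05 for KIF2C, and -0.12 for SGO1 and -0.19 for CDCA8 (shDROSHA replicate 1), 0.12 for SGO1, 0.09 for CDCA8 and 0.33 for KIF2C (shDROSHA replicate 2), 0.00 for CDCA8 (shNC replicate 1) and 0.11 for SGO1 (shNC replicate 2). A robust prior changed no member's call; averaging a gene's probe sets could not, since each member has 1. With the replicate block, 18 members rose and 0 fell. Deviations of same-numbered arrays had a correlation of -0.022, so the numbers were not taken as pairs. The causes of the differences between settings were not tested.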
